A study of Mus musculus with 6 samples.

Results

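The 10 genes described here are markers of intestinal stem cells, taken by gene name from the tables of 6 small intestinal adenoma libraries, and each was found once among the 48440 genes listed. *Lgr5*, *Olfm4*, *Ascl2*, *Smoc2*, *Slc12a2* and *Cd44* are treated as crypt base markers (6 genes) and *Bmi1*, *Lrig1*, *Hopx* and *Msi1* as reserve markers (4 genes). RNA came from 3 adenoma samples of ApcMin, PCdel mice (libraries QC3, QC8 and QC10) and 3 of ApcMin mice (QC4, QC5 and QC6), all on a C57BL/6 background and older than 42 days. The labels say neither whether each sample is a separate mouse nor whether adenomas were pooled, so that p-values measure only the spread between these libraries. PCdel mice carry *Defa4*-Cre, which is active in the Paneth cell (PC) lineage, and 1 Rosa26 allele for a Cre-dependent diphtheria toxin A, so that PCs die. By the study's methods the ApcMin controls are littermates with the toxin allele and without the Cre. All mice carry the Min allele of *Apc*, whose loss activates the Wnt pathway in adenomas.

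Stem cells at the base of small intestinal crypts sit between PCs and divide under Wnt signals, which R-spondins strengthen through LGR receptors. Their markers include direct Wnt targets, and adenomas that have lost APC keep many of these genes on without ligand. Reserve markers were first linked to slowly dividing cells above the crypt base, but several are also expressed in crypt base stem cells and in other cells of the gut. Whether loss of PCs, a source of Wnt ligand next to stem cells, goes with a change in these markers is the question that the comparison addresses.

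None of the 10 markers differed between ApcMin, PCdel and ApcMin adenomas beyond the spread between libraries. FPKM, a read density per length of transcript and per fragment total of the library, was compared as log2(FPKM + 1) with limma. The fit covered the 14240 genes whose FPKM averaged 1 or more over the libraries, and p-values were adjusted by Benjamini-Hochberg to a threshold of 0.05. All 10 markers passed the filter on low values, 0 passed the adjusted threshold (adjusted p = 1.0 from limma for each), and 0 had an unadjusted p under 0.05. Over all genes tested, 0.014% passed the adjusted threshold and 3.38% had an unadjusted p under 0.05. The 2 genes past the adjusted threshold were *Hist2h2aa1* (higher in PCdel, a histone gene with a near-identical copy that reads could be split with) and *Rab43* (lower), neither a stem cell marker. In 0 of the 10 markers were the groups apart, where 7.54% of all genes tested had groups that did not overlap. *Olfm4* and *Hopx* varied most between the libraries.

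Positions are given as the authors list them. The build is not named, and 87.7% of shared genes had the position of the GENCODE M21 annotation of GRCm38. All markers but *Olfm4* were among these. The libraries held between 5.407 and 5.876 gigabases of aligned sequence, and the epithelial gene *Epcam* was at 735.1 to 1001 FPKM in each. PC products were lower in PCdel adenomas to uneven degrees. *Lyz1* (lysozyme) was at 1060 ± 100.7 FPKM against 2060 ± 337.7 (SD, n = 3 each, groups apart, limma adjusted p = 0.979). The defensin genes *Defa21* and *Defa22* averaged 27.9 and 31.2 FPKM in PCdel against 240.5 and 231.9 in ApcMin adenomas (groups apart, limma adjusted p = 0.309 each). *Defa24*, the most abundant PC gene listed, averaged 1762 FPKM against 3747, and its groups overlapped. *Pla2g2a* averaged 263.2 FPKM against 290.5, and *Ang4* 553.6 FPKM against 547.4. All 12 PC genes listed for this work had lower means of log2(FPKM + 1), where 63.1% of all genes had higher ones. Of the 12, 6 had an unadjusted p under 0.05 (0.681% of all genes did in this direction). Without QC6, 5 did (2.35% of all genes in that fit), and 10 means were lower. Of those 5, *Mmp7* and *Pla2g2a* were not among the 6. ApcMin library QC6 stood apart from the other 5 on the first principal component, which held 34.2% of the variance, and PCdel libraries QC10 and QC3 lay at opposite ends of the second (21.2%). Y-linked genes were expressed in QC3 and QC6, 1 library of each genotype. In bulk tissue, fewer cells of a type and less RNA per cell cannot be told apart.

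*Lgr5* (chromosome 10, 115450311 to 115587780) encodes a receptor for R-spondins and defines crypt base stem cells. It was expressed at 14.5, 12.8 and 8.84 FPKM in ApcMin libraries QC4, QC5 and QC6, and at 12.2, 16.6 and 8.72 FPKM in PCdel libraries QC3, QC8 and QC10. The highest and the lowest library were both of the PCdel genotype, and the groups overlapped in full. The mean was 12.04 ± 2.90 FPKM (SD, n = 3) in ApcMin and 12.5 ± 3.94 FPKM (SD, n = 3) in PCdel adenomas, a log2 fold change of 0.04 (95% confidence interval -0.58 to 0.65; exact two-sided permutation test, p = 1). The sign of so small a difference turned with the scaling, to -0.01 with quantile normalization and -0.01 with median centring.

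*Ascl2* (chromosome 7, 142966829 to 142969264) encodes a Wnt-responsive transcription factor that maintains the *Lgr5* stem cell programme. Its values were 13.5, 11.2 and 8.31 FPKM in QC4, QC5 and QC6, and 10.8, 8.55 and 9.81 FPKM in QC3, QC8 and QC10. The PCdel libraries lay inside the range of the ApcMin libraries. The log2 fold change was -0.14 (95% confidence interval -0.57 to 0.29; exact two-sided permutation test, p = 0.5). *Ascl2* did not follow *Lgr5* in every library. In QC8, where *Lgr5* was highest, *Ascl2* was at 0.515 of *Lgr5* by FPKM, and in the other 5 libraries this ratio lay between 0.872 and 1.12.

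*Olfm4* (chromosome 14, 80000302 to 80021930) encodes a secreted glycoprotein of crypt base stem cells and was the most abundant of the 10 markers in both genotypes. It was expressed at 51.7, 68.4 and 112.6 FPKM in QC4, QC5 and QC6, and at 67.3, 95.05 and 155.6 FPKM in QC3, QC8 and QC10. QC10 and QC6, 1 library of each genotype, were the highest pair. The means were 77.5 ± 31.5 FPKM (SD, n = 3) in ApcMin and 106.0 ± 45.1 FPKM (SD, n = 3) in PCdel adenomas. The log2 fold change was 0.44, and its 95% confidence interval (-0.47 to 1.34) spans 0 and more than a doubling (exact two-sided permutation test, p = 0.6). Single libraries moved it, to 0.12 without QC10, 0.18 without QC4, 0.72 without QC3 and 0.74 without QC6.

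*Smoc2* (chromosome 17, 14279506 to 14404790) encodes a secreted matricellular protein of the *Lgr5* stem cell signature that stromal cells also express. It was at 50.7, 58.4 and 39.3 FPKM in QC4, QC5 and QC6, and at 51.2, 52.1 and 38.1 FPKM in QC3, QC8 and QC10. QC6 and QC10 were the lowest pair, the reverse of *Olfm4*. Its log2 fold change was -0.06 (95% confidence interval -0.51 to 0.39; exact two-sided permutation test, p = 0.8). The summed FPKM of 7 fibroblast genes was also lowest in QC6 (189.4), at 239.9 in QC10 and at 256.2 to 385.4 in the other 4 libraries. All 7 had a higher PCdel mean (63.1% of all genes), or 5 without QC6 (49.3%). The groups were apart for *Dcn* and *Pdgfra* (unadjusted p = 0.0181 and 0.00571 from limma, adjusted p = 1.0 each), as in 6.0% of all genes in this direction. Without QC6, *Pdgfra* alone of the 7 had an unadjusted p under 0.05 from limma, where 3.43% of all genes did in this direction. The part of fibroblasts in the *Smoc2* values was not tested.

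*Slc12a2* (chromosome 18, 57878678 to 57946821) encodes the sodium-potassium-chloride cotransporter NKCC1 of crypt cells. It was at 39.4, 45.4 and 36.6 FPKM in QC4, QC5 and QC6, and at 50.2, 48.2 and 29.8 FPKM in QC3, QC8 and QC10. The PCdel libraries covered a range wider than that of the ApcMin libraries, and the log2 fold change was 0.05 (95% confidence interval -0.46 to 0.55; exact two-sided permutation test, p = 0.8), or -0.0038 with median centring.

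*Cd44* (chromosome 2, 102811141 to 102901665) is a Wnt target that encodes a hyaluronan receptor of crypt cells and also of leukocytes. It was at 36.4, 33.8 and 23.0 FPKM in QC4, QC5 and QC6, and at 34.4, 40.2 and 31.5 FPKM in QC3, QC8 and QC10. QC6 was lowest. The log2 fold change was 0.20 (95% confidence interval -0.26 to 0.65; exact two-sided permutation test, p = 0.5), and 0.0037 without QC6. The summed FPKM of 11 leukocyte genes was 38.2 to 64.3 in ApcMin and 55.0 to 56.7 in PCdel libraries, highest in QC6. All 10 of these genes that were tested had a higher PCdel mean of log2(FPKM + 1), where 63.1% of all genes did. The groups were apart for *Adgre1*, the macrophage marker F4/80 (limma, unadjusted p = 0.0287, adjusted p = 1.0), as in 6.0% of all genes in this direction. Without QC6 all 10 were again higher (49.3% of all genes), with a median log2 fold change of 0.43. In that fit 5 of them (*Ptprc*, *Cd3g*, *Cd8a*, *Cd4* and *Adgre1*) had an unadjusted p under 0.05, where 3.43% of all genes did in this direction. QC6 was the highest of all libraries for 4 of the 10, *Cd3g* and *Cd8a* among them. It was the highest ApcMin library for each of the 5 genes named, so that leaving it out raised their PCdel difference by itself. That count is therefore no separate support for a difference. The part of leukocytes in the *Cd44* values was not tested.

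**Figure D1:**
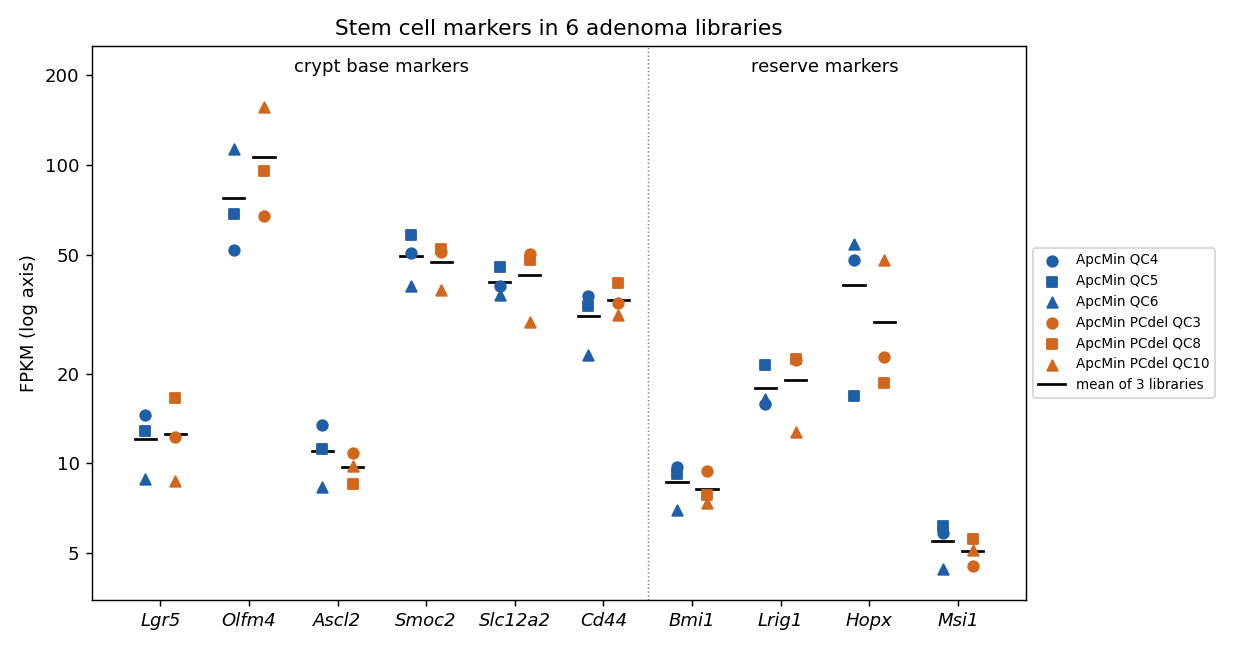
FPKM of each stem cell marker on a log axis, with ApcMin libraries in blue, ApcMin PCdel libraries in orange, marker shapes for the libraries (a shared shape links no samples) and a line at the mean of 3 libraries. The groups overlap in each gene, and *Olfm4* (51.7 to 155.6 FPKM) and *Hopx* (16.8 to 54.2 FPKM) spread most.

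Of the reserve markers, *Bmi1* (chromosome 2, 18677018 to 18686629) encodes a Polycomb repressor protein that sustains self-renewal. It was at 9.74, 9.24 and 7.01 FPKM in QC4, QC5 and QC6, and at 9.41, 7.86 and 7.36 FPKM in QC3, QC8 and QC10, with a log2 fold change of -0.06 (95% confidence interval -0.42 to 0.30; exact two-sided permutation test, p = 0.9). With *Msi1* it varied least of the 10 markers, by 1.39-fold from the lowest to the highest library, against a median of 1.46-fold over all genes tested. Transcripts of the gene Gm5946, listed at no more than 0.463 FPKM, hold 27.5% of the 31-base words of *Bmi1* transcripts, so that a part of its reads could be assigned to either.

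*Lrig1* (chromosome 6, 94604529 to 94700158) encodes a membrane protein that restrains ERBB receptor signalling. Its values were 15.9, 21.4 and 16.5 FPKM in QC4, QC5 and QC6, and 22.1, 22.3 and 12.8 FPKM in QC3, QC8 and QC10. QC10 was lowest and the groups overlapped. The log2 fold change was 0.06 (95% confidence interval -0.50 to 0.62; exact two-sided permutation test, p = 0.8). *Slc25a26*, on the opposite strand, overlaps *Lrig1* and was at no more than 4.75 FPKM.

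*Msi1* (chromosome 5, 115429599 to 115455698) encodes an RNA-binding protein of stem and progenitor cells and was the least abundant marker in both genotypes, with a listed read coverage of 9.35 to 13.9 per base. It was at 5.87, 6.19 and 4.45 FPKM in QC4, QC5 and QC6, and at 4.52, 5.59 and 5.15 FPKM in QC3, QC8 and QC10. The PCdel libraries lay inside the range of the ApcMin libraries, and the log2 fold change was -0.09 (95% confidence interval -0.43 to 0.25; exact two-sided permutation test, p = 0.6).

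*Hopx* (chromosome 5, 77086988 to 77115121) encodes a small homeodomain protein without DNA binding that is used to trace reserve stem cells and is also made in differentiated epithelium. It was expressed at 47.9, 16.8 and 54.2 FPKM in ApcMin libraries QC4, QC5 and QC6, and at 22.7, 18.6 and 47.9 FPKM in PCdel libraries QC3, QC8 and QC10. Values fell at 16.8 to 22.7 FPKM in 3 libraries and at 47.9 to 54.2 FPKM in the other 3, with both genotypes on each side. The means were 39.6 ± 20.01 FPKM (SD, n = 3) in ApcMin and 29.7 ± 15.8 FPKM (SD, n = 3) in PCdel adenomas. The log2 fold change of -0.36 had the widest interval of the 10 markers (95% confidence interval -1.59 to 0.87; exact two-sided permutation test, p = 0.6), and it was 0.02 with array quality weights. It was -0.06 without QC6, -0.10 without QC8, -0.15 without QC4, -0.23 without QC3, -0.76 without QC10 and -0.88 without QC5. The antisense gene Hopxos holds 25.4% of the 31-base words of *Hopx* transcripts and was listed at no more than 0.389 FPKM. Since the counting is not stated to use strand, reads of that overlap cannot be told apart.

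The promoters of *Olfm4* and *Hopx*, the markers that varied most between libraries, are shown as the 250 bases before the annotated start (RefSeq, GRCm38.p6, 5′ to 3′ on the gene's strand). RefSeq lists 2 start sites for *Hopx*, and the gene's FPKM sums transcripts from both. Capitals mark TATAA on either strand, a word of the TATA box that was chosen after the sequences were seen.
Olfm4, chr14:80000052-80000301, + strand: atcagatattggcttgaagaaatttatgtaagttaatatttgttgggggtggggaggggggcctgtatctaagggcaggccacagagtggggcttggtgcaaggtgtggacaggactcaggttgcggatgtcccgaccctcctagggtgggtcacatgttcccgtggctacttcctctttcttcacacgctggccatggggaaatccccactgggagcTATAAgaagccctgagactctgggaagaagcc
Hopx, upstream start, chr5:77115124-77115373, - strand: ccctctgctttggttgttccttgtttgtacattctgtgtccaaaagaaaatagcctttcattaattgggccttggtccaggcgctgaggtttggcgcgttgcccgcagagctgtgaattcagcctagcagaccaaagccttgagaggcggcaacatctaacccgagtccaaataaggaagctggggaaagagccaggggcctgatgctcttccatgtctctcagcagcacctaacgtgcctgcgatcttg
Hopx, downstream start, chr5:77095268-77095517, - strand: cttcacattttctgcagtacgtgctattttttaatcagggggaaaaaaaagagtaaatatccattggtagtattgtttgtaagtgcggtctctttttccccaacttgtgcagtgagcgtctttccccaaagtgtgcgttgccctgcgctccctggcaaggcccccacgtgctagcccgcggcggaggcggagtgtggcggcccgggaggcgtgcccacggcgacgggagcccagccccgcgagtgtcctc

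Promoter sequence was matched for 6 of the 10 markers (*Olfm4*, *Ascl2*, *Cd44*, *Bmi1*, *Lrig1* and *Hopx*, 7 promoters in all) and not for *Lgr5*, *Smoc2*, *Slc12a2* and *Msi1*. The *Olfm4* promoter holds TATAA on the gene's strand from base -32 to -28, counted back from -1 just before the start. Of the 32851 promoters of this length, 22.8% hold TATAA on either strand, and it is in 1 of the 7 marker promoters. The TCF/LEF words CTTTGAT and CTTTGAA, which Wnt signalling acts through, are in 0 of the 7 marker promoters and in 7.48% of all promoters. CAGCTG, an E box of the kind that ASCL2 binds, is in 0 of the 7 and in 13.0% of all. These counts describe the letters of these windows only.

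The levels of the 10 markers followed nearly the same order in both genotypes. By mean FPKM, which is scaled for length, *Olfm4*, *Smoc2* and *Slc12a2* came first in ApcMin adenomas, followed by *Hopx*, *Cd44*, *Lrig1*, *Lgr5*, *Ascl2*, *Bmi1* and *Msi1*. In PCdel adenomas *Cd44* stood before *Hopx*, and the order was otherwise the same. In ApcMin adenomas the ranges of neighbours overlapped apart from *Cd44* over *Lrig1*, *Lrig1* over *Lgr5* and *Bmi1* over *Msi1*. In PCdel adenomas they overlapped apart from *Olfm4* over *Smoc2* and *Bmi1* over *Msi1*. *Lgr5* thus sat in the middle of all genes tested, with 56.0% of them at a lower mean, against 93.2% for *Olfm4* and 32.4% for *Msi1*.

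**Figure D2:**
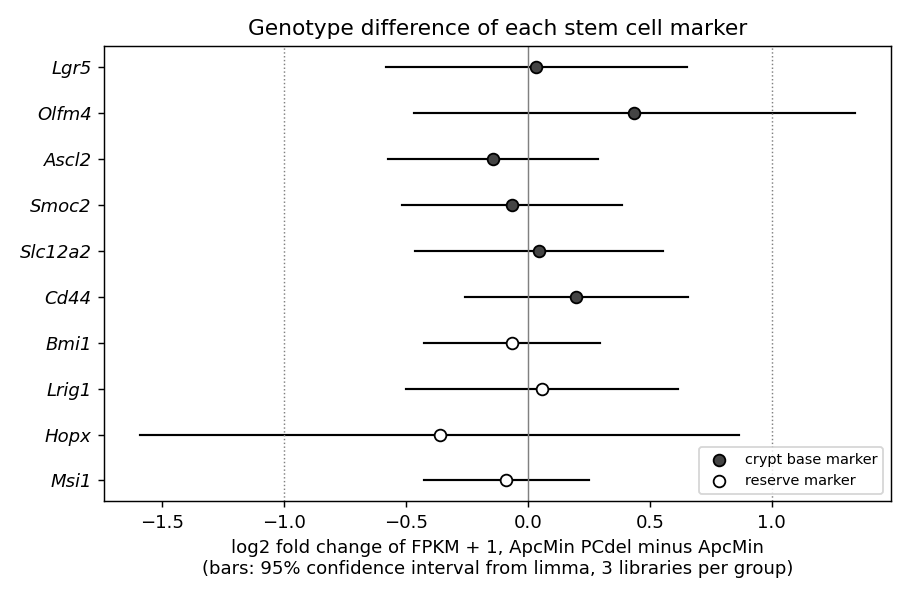
Log2 fold change of FPKM + 1 (ApcMin PCdel minus ApcMin) of each marker, with its 95% confidence interval from limma on 3 libraries per genotype. Each interval spans 0, and 8 of 10 stay inside the dotted lines at -1 and 1, with *Olfm4* and *Hopx* passing them.

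The intervals give the sizes of change that remain compatible with the values of these libraries. For 8 of the 10 markers the 95% confidence interval lay within 1 on the log2 scale, that is, within a doubling or a halving of FPKM + 1, as it did for 91.4% of all genes tested. For *Olfm4* and *Hopx* the intervals passed that size. The smallest possible p of the exact test with 3 libraries against 3 is 0.1, so that it could not pass the threshold for any gene.

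The balance of both classes, crypt base against reserve, also overlapped between genotypes. Of the crypt base markers, 4 had a higher and 2 a lower PCdel mean on the log2 scale, with a median log2 fold change of 0.04. Of the reserve markers, 1 was higher and 3 were lower, with a median of -0.08. Over all genes tested, 63.1% had a higher PCdel mean and the median log2 fold change was 0.04. Without QC6, 2 of the 6 crypt base and 1 of the 4 reserve markers had the higher PCdel mean, and 49.3% of all genes. The mean log2(FPKM + 1) of the crypt base markers exceeded that of the reserve markers by 0.99, 1.30 and 0.91 in ApcMin libraries QC4, QC5 and QC6, and by 1.25, 1.44 and 1.11 in PCdel libraries QC3, QC8 and QC10. Both ranges share the span from 1.11 to 1.30. The genotypes' difference was 0.20 on the log2 scale, close to the pooled SD of 0.19 between libraries, and no test was made of a score over chosen genes. Without *Olfm4* and *Hopx*, left out after their values were seen, the excess was 1.25 ± 0.12 (SD, n = 3) in ApcMin and 1.30 ± 0.06 (SD, n = 3) in PCdel adenomas.

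Several markers were low or high in the same libraries, across the genotypes. QC6 or QC10 was the lowest library for 8 of the 10 markers, where this held for 59.1% of all genes tested. Both were the lowest pair for 5 markers (*Lgr5*, *Smoc2*, *Slc12a2*, *Cd44* and *Bmi1*), against 20.4% of all genes tested. They were the highest pair for *Olfm4*, against 6.80% of all genes. These libraries were singled out after their values were seen, and 1 belongs to each genotype. Without both, the log2 fold change was 0.06 for *Lgr5*, 0.42 for *Olfm4* and -0.45 for *Hopx*, and 0 of the 10 markers passed the adjusted threshold. Leaving out 1 of the pair moved these values further. Without QC6 they were -0.16, 0.74 and -0.06, and without QC10 they were 0.25, 0.12 and -0.76.

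**Figure D3:**
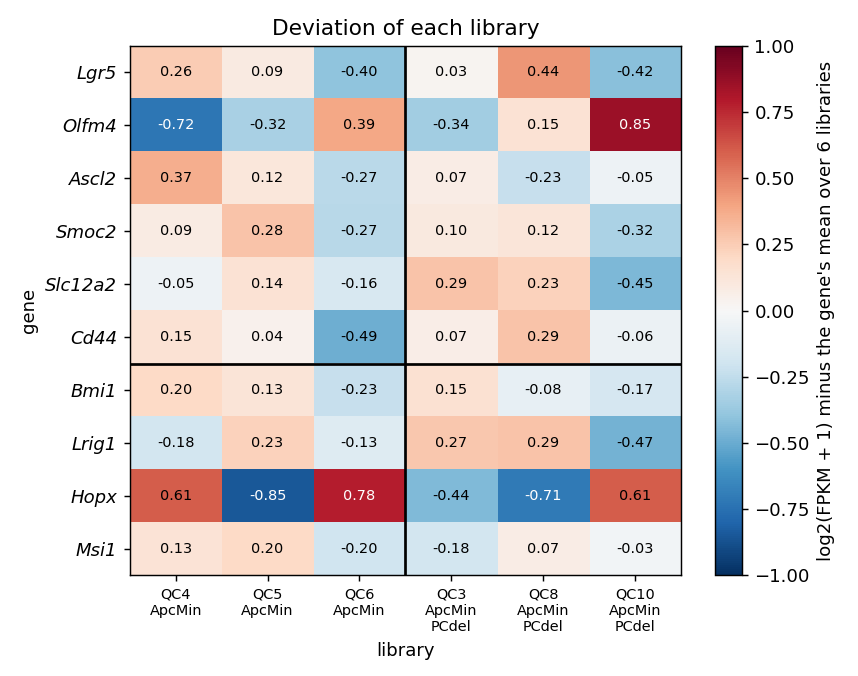
Each cell gives a library's log2(FPKM + 1) minus the gene's mean over all 6 libraries, with genes in rows and libraries in columns (ApcMin left, ApcMin PCdel right of the line; crypt base markers above, reserve markers below). *Lgr5* is at -0.40 in QC6 and -0.42 in QC10, where *Olfm4* is at 0.39 and 0.85, and *Hopx* is above 0 in QC4, QC6 and QC10 only.

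Ratios within a library do not depend on its scaling. The ratio of *Olfm4* to *Lgr5* was 3.57, 5.34 and 12.7 in QC4, QC5 and QC6, and 5.51, 5.73 and 17.8 in QC3, QC8 and QC10. In QC6 and QC10 it was thus above all other libraries. The ratio of *Hopx* to *Lrig1* was 3.02, 0.785 and 3.29 in QC4, QC5 and QC6, and 1.02, 0.834 and 3.74 in QC3, QC8 and QC10, so that it separated QC4, QC6 and QC10 from the rest, again across the genotypes. *Smoc2* stayed between 3.14 and 4.56 times *Lgr5* in all 6 libraries.

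Markers of other cells also differed between these libraries. The summed FPKM of 9 enterocyte genes, among them *Apoa1* and *Apoa4* (apolipoproteins of fat absorption), was 26132 in QC6 and 16272 in QC10, against 10114 to 11924 in the other 4 libraries. QC6 was the highest library for 7 of the 9 and QC10 for 2. They were the highest pair for 4 of the 9 (6.80% of all genes). In QC10 the rise was uneven, with *Apoa1* at 7618 FPKM but *Alpi* lowest of all libraries (193.6 FPKM). *Apoa4* was at 1813 FPKM in QC10, below QC3 (2436 FPKM) and QC8 (2369 FPKM). By genotype the sum was 10946 to 26132 in ApcMin and 10114 to 16272 in PCdel libraries, and 0 of the 9 genes had an unadjusted p under 0.05 from limma. The PCdel mean of log2(FPKM + 1) was higher in 1 of the 9, against 63.1% of all genes. Without QC6 it was higher in 6 of the 9 (49.3% of all genes). In that fit *Apoa4* had an unadjusted p under 0.05, as 3.43% of all genes did in this direction. The 2 libraries highest in *Olfm4* were those with the highest enterocyte sums. *Olfm4* was also at 95.05 FPKM in QC8, where that sum was lowest (10114). *Hopx* was also high in QC4, where the enterocyte sum was 11432. Neutrophils can express *Olfm4*, and the summed FPKM of 7 neutrophil genes was 23.5, 13.7 and 8.998 in QC4, QC5 and QC6, and 21.3, 30.9 and 13.9 in QC3, QC8 and QC10. That sum was thus lowest in QC6 and at 13.9 in QC10, the libraries highest in *Olfm4*. All 5 neutrophil genes tested had a higher PCdel mean of log2(FPKM + 1), where 63.1% of all genes did. The groups were apart for *Retnlg* (log2 fold change 0.68, limma adjusted p = 0.979), as in 6.0% of all genes in this direction. Without QC6, 2 of the 5 were higher (49.3% of all genes). *Retnlg* alone of the 5 had an unadjusted p under 0.05 from limma in that fit (3.43% of all genes in this direction). The part of enterocytes, neutrophils and tumour purity in the marker values was not tested.

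**Figure D4:**
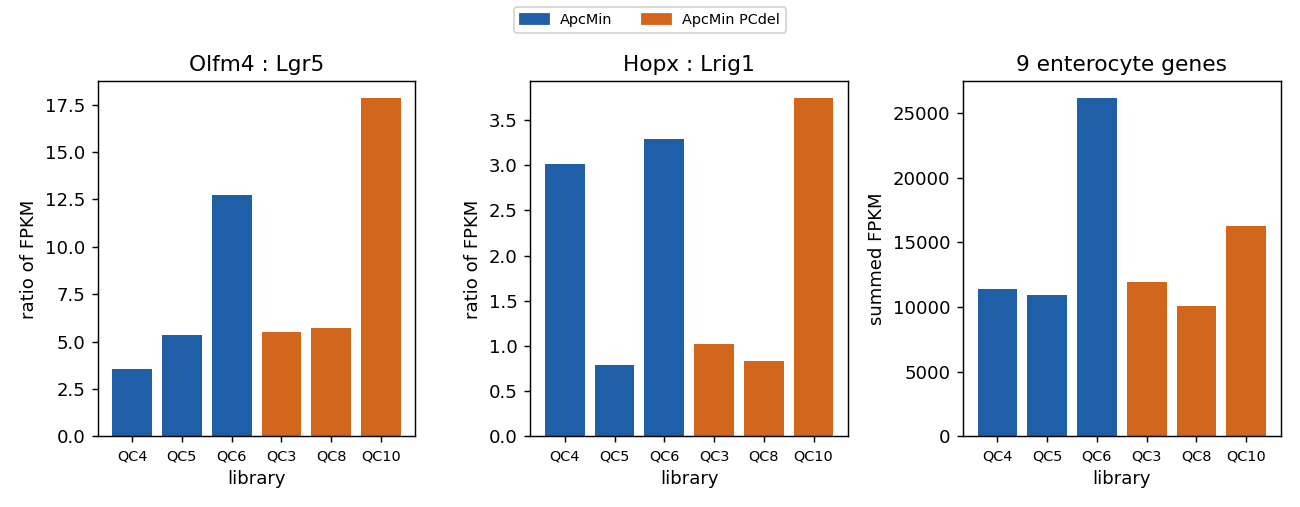
Bars from 0 give, for each library, the ratio of *Olfm4* to *Lgr5* FPKM, the ratio of *Hopx* to *Lrig1* FPKM and the summed FPKM of 9 enterocyte genes (ApcMin in blue, ApcMin PCdel in orange). QC6 and QC10 are highest in all 3 panels, and QC4 joins them for *Hopx* to *Lrig1* (3.02).

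Other genes tied to the stem cell compartment also stayed under the threshold. Of 18 further crypt base genes, 0 passed the adjusted threshold and 1 had an unadjusted p under 0.05, where 2.7% of all genes did in the direction of higher PCdel values. This was *Znrf3*, which encodes a ubiquitin ligase that removes Wnt receptors, at 5.25, 4.69 and 4.23 FPKM in QC4, QC5 and QC6 and at 5.67, 6.10 and 5.80 FPKM in QC3, QC8 and QC10. The groups were apart by a narrow margin, as in 6.0% of all genes in this direction (log2 fold change 0.26, 95% confidence interval 0.01 to 0.52, limma adjusted p = 1.0). The PCdel mean of log2(FPKM + 1) was higher in 14 of the 18 (63.1% of all genes) and lower in 4, with a median log2 fold change of 0.17. QC6 was the lowest library in 16 (46.0% of all genes). Without QC6, 9 of the 18 had the higher PCdel mean (49.3% of all genes), and the median was -0.0055. *Znrf3* then had a log2 fold change of 0.20 (limma adjusted p = 0.845). The 4 most abundant were *Igfbp4* (binds insulin-like growth factors), *Prom1* (encodes the membrane protein CD133), *Lgr4* (the R-spondin receptor related to LGR5) and *Kcnq1* (a potassium channel), with log2 fold changes of -0.03, 0.43, 0.13 and -0.04.

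Of 10 further genes used to mark reserve or regenerating cells, 8 passed the filter, and *Tert* and *Krt15* did not (highest library at 0.700 and 0.349 FPKM). None of the 8 passed the adjusted threshold, and 1, *Clu*, had an unadjusted p under 0.05 from limma (2.7% of all genes in this direction). *Clu*, which encodes the secreted chaperone clusterin and marks revival stem cells after injury, was at 1322, 1035 and 783.5 FPKM in QC4, QC5 and QC6, and at 1897, 1526 and 1319 FPKM in QC3, QC8 and QC10. The lowest PCdel library lay just under the highest ApcMin library, and the log2 fold change was 0.61 (95% confidence interval 0.04 to 1.18, limma adjusted p = 1.0). *Krt19*, *Phlda1* and *Prox1*, the next in abundance, had log2 fold changes of 0.05, 0.08 and 0.21. All 8 means of log2(FPKM + 1) were higher in PCdel adenomas (63.1% of all genes), and QC6 was the lowest library in 7 (46.0% of all genes). Without QC6, 4 of the 8 had the higher PCdel mean (49.3% of all genes), and *Clu* had a log2 fold change of 0.42 (limma adjusted p = 0.845). Of 9 proliferation genes, among them *Mki67*, 0 had an unadjusted p under 0.05, with a median log2 fold change of 0.03. Without QC6, that median was -0.11, with 1 of the 9 means higher in PCdel adenomas (49.3% of all genes). In that fit *Birc5* had an unadjusted p under 0.05 in the direction of lower PCdel values (2.35% of all genes).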

How the data were processed

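RNA-seq was made by the authors from adenomas stored in RNAlater, with the TruSeq RNA kit and a HiSeq2500 sequencer. The paper's methods name CLC Genomics Workbench 7 for alignment and a normalization in MatLab, whose settings are not given in the sources used here. The authors deposited FPKM (scaled for gene length and library size), TPM (scaled to a fixed sum per library) and mean read coverage (not scaled, a signal per gene) for each library, and no counts. The genome build and annotation are not named, and 87.7% of the 48058 gene identifiers shared with GENCODE M21 had the same position in GRCm38.

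FPKM of entries with 1 gene identifier was summed. log2(FPKM + 1), which understates changes of low genes, was fitted with limma 3.58.1 in R 4.3.3 (eBayes with a trend, 3 libraries per genotype, no covariates) for genes averaging 1 FPKM or more. Single genes were also compared by exact permutation of the 6 FPKM values. The fit was also run on simulated data with independent noise for each gene and library. Those data held no shift shared by the genes of a library, so that no conclusion is drawn from them. Aligned sequence per library was the ratio of coverage to FPKM shared by most genes. No read numbers were derived, and so no counting intervals or floors.

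The markers and gene lists were chosen with earlier results of these data known. Genes named are the 10 markers, the 4 most abundant genes of each further stem cell list, those of them with an unadjusted p under 0.05, and *Lyz1*, *Epcam* and other cell type genes beside the results they touch. Alternatives were another pseudocount, other filters, TPM, 3 other scalings, no trend, library weights, a Y-linked covariate and each library left out.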

Additional observations from a re-analysis of the deposited data

How the results depend on the processing

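None of the 10 markers passed the adjusted threshold under any of the 17 alternatives, of which 1 (without QC6 and QC10 together) was chosen after seeing the data. The lowest adjusted p from limma over these fits was 0.575, for *Msi1*. The signs of *Olfm4*, *Cd44* and *Msi1* held throughout, and those of the other 7 turned, that of *Hopx* from -0.36. With single libraries dropped, *Cd44* still ran from 0.0037 to 0.32 and *Msi1* from -0.21 to -0.010. Other filters and the fit without a trend leave each log2 fold change as it is and could not turn a sign. With quantile normalization *Lgr5* was -0.0099. With median centring *Lgr5* was -0.014 and *Slc12a2* -0.0038. With array quality weights *Lgr5* was -0.022 and *Hopx* 0.025. When single libraries were dropped, the log2 fold change ran from -0.31 to 0.0050 for *Ascl2*, -0.19 to 0.018 for *Bmi1*, -0.88 to -0.060 for *Hopx*, 0.12 to 0.74 for *Olfm4*, -0.18 to 0.25 for *Lgr5*, -0.071 to 0.31 for *Lrig1*, -0.087 to 0.28 for *Slc12a2* and -0.22 to 0.080 for *Smoc2*. The difference between the marker classes stayed between 0.098 and 0.31 over 14 alternatives. Median centring and centring on epithelial genes are among these and could not change it (0.199 in each), as they shift all genes of a library alike. Over all genes, 2 passed the adjusted threshold, 1 without the filter, 1 with median centring, 1 with centring on epithelial genes, and 1 to 5 with single libraries dropped (5 without QC4). The cause was not tested. No paired analysis was possible because no label pairs a PCdel sample with an ApcMin sample. Counts of further stem cell genes with a higher PCdel mean rested on QC6, and fell from 14 to 9 of 18 and from 8 to 4 of 8 without it. Over all genes the share with a higher PCdel mean fell from 63.1% to 49.3%. Depth was similar between libraries, at 5.407 to 5.876 gigabases.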
